A study of Mus musculus with 2197 samples.

Results

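The embryonic mouse pancreas was compared at embryonic days E15.5 and E14.5 in single cells of the Pdx1-Cre lineage. All cells came from the pancreas of embryos with the genotype Pdx1-Cre; Rosa-RFP. Cre recombinase driven by the Pdx1 promoter, active in pancreatic progenitors, switches on a red fluorescent protein from the Rosa locus, and the labels give the cells as RFP positive. The label therefore marks descendants of Pdx1-expressing cells of every pancreatic epithelial type and says nothing of the type itself. Neither day carried a mutation under test or a treatment. The cells were chosen by column name in the Smart-seq2 read count table, with 205 cells in all, 79 at E15.5 and the rest at E14.5. They belong to 604 cells of the Pdx1-Cre lineage between E10.5 and E15.5 and to 2195 Smart-seq2 cells in the whole study, which followed pancreatic lineages over these days.

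The title of each cell gives a set number, and the set was the unit of replication. E15.5 sets 1, 2 and 3 held 24, 8 and 47 cells, and E14.5 sets 1, 2, 3 and 4 held 6, 15, 61 and 44 cells. What defines a set, how many embryos went into it and whether sets are separate litters is not in the labels, so every p-value rests on the scatter of sets and that scatter may be technical. A cell had 333744 to 1353768 counts over genes (median 509566), and a set summed to 2838610 to 27694847. Median counts per cell were higher in E15.5 sets 1 and 2, at 1011440 and 849638, against 509566 in E15.5 set 3 and 450732 to 568731 in the E14.5 sets. Smart-seq2 reads whole transcripts without molecular identifiers, so counts are reads and not molecules. CPM values, the usual depth-scaled counts, are shares of a set's or a cell's gene counts. They compare 1 gene between samples, and not genes of different length.

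The exocrine pancreas is built from acini, which make and secrete digestive enzymes as inactive zymogens, and from ducts, while the islets hold the endocrine cells. In the mouse embryo multipotent progenitors split into acinar cells at the tips of the branching epithelium and a bipotent trunk that gives ducts and, through a transient Neurog3-expressing progenitor, endocrine cells. The PTF1 complex, in which Ptf1a pairs with a bHLH partner and with Rbpj in progenitors or Rbpjl in acinar cells, drives the acinar genes. The days compared fall in the wave of growth known as the secondary transition, in which acinar and endocrine cells are made in large numbers.

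Most cells carried an epithelial marker. Epcam, an epithelial adhesion protein, was at 50 CPM or more in 92.4% of cells at E15.5 and in 89.7% of cells at E14.5. At least 4 of 10 mesenchyme markers were at that level in 4 cells, all of E15.5 set 1, and at least 4 of 10 leukocyte or liver markers in 1 cell each of the same set. Without the cells that carry markers of other types 63 genes passed in the comparison of the days given next, 46 of them among its 47. At least 4 of 10 neural and glial markers were carried by 2 cells at E15.5 and 5 cells at E14.5. No cell of either day carried 4 endothelial, red cell or gut markers, which allows a share of up to 3.80% at E15.5 and 2.38% at E14.5, counting error only.

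The sum of digestive enzyme transcripts separated the days. The 29 enzyme genes found in the table took 8.13% ± 3.27 of all gene counts in the E15.5 sets and 0.724% ± 0.402 in the E14.5 sets (SD, n = 3 and 4). The lowest E15.5 set was at 4.80% and the highest E14.5 set at 1.27%. Across 15126 genes tested on counts summed per set (edgeR quasi-likelihood test, Benjamini-Hochberg adjusted p under 0.05), 47 genes passed, which is 0.311% of the genes. Of these 46 were higher at E15.5 (0.304%) and 1 was lower (0.00661%). At an unadjusted p under 0.05 there were 1817 genes (12.0%). The median log2 fold change of all genes tested was -0.03. Of the 47 genes 19 were on the lists of pancreatic gene groups, all higher: 11 of 25 tested digestive enzymes, 2 of 11 zymogen granule genes, 3 of 24 folding genes of the endoplasmic reticulum (ER), 1 of 7 acinar transcription factors and 2 of 15 genes of amino acid and one-carbon supply.

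A set's sum combines how many of its cells are acinar with how much each acinar cell expresses, and in the sums these cannot be told apart. The cells themselves are taken up after the genes. The count of 47 rests on few sets. Leaving out a set gave 6, 0 and 76 genes without E15.5 set 1, 2 or 3, and 22, 62, 9 and 10 genes without E14.5 set 1, 2, 3 or 4. The 0 without E15.5 set 2, the set of 8 cells, was edgeR's count (1257 genes at an unadjusted p under 0.05), while DESeq2 on the same sets called 216 genes, all 47 among them, and limma called 0 (1403 at an unadjusted p under 0.05).

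**Figure D1:**
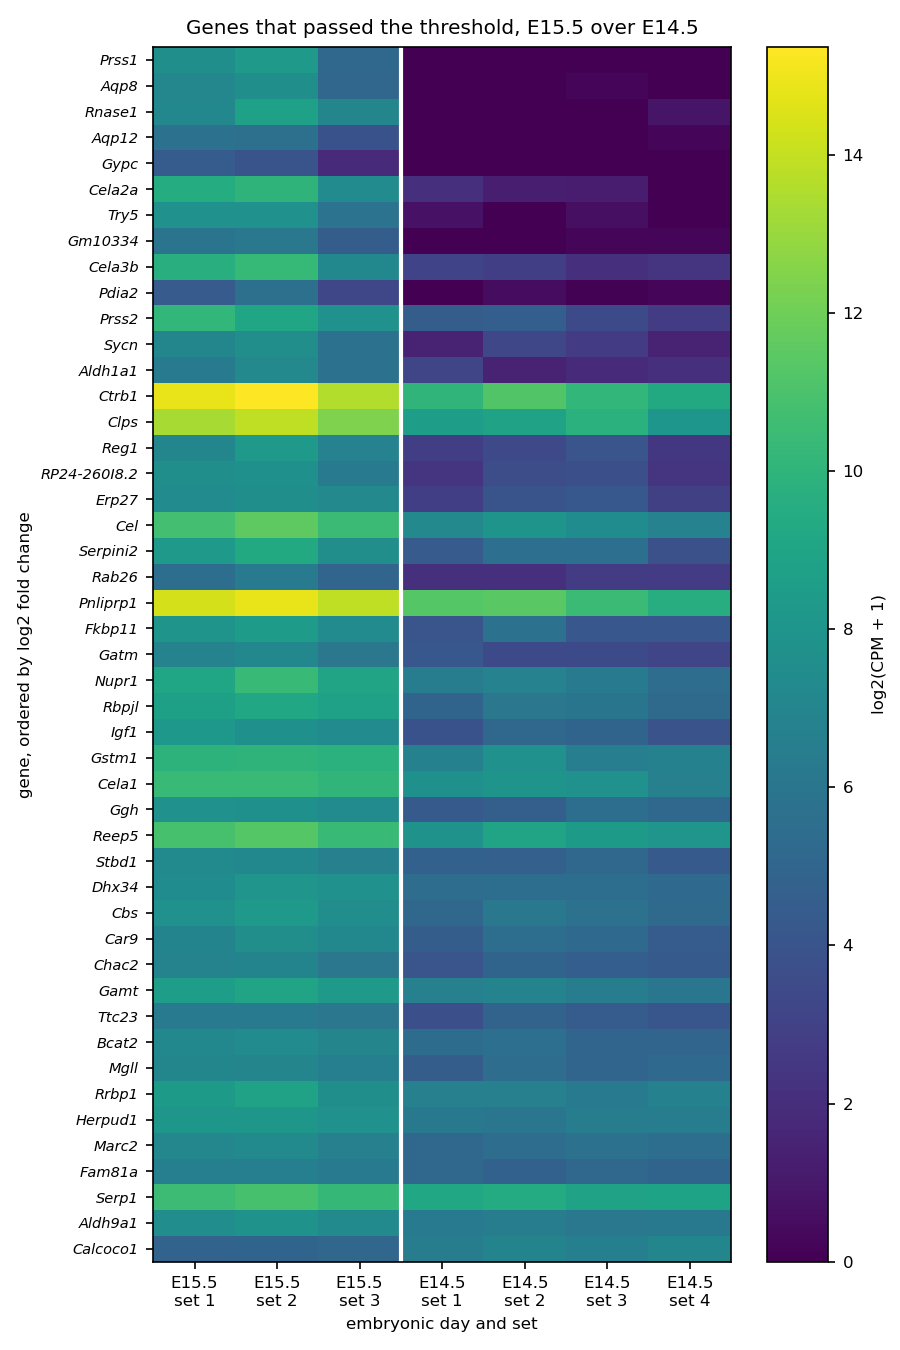
Heat map of the 47 genes that passed the threshold, ordered by log2 fold change, with 1 column for each set and colour for log2(CPM + 1). The 3 E15.5 sets lie left of the white line and the 4 E14.5 sets right of it, and each of the 46 upper genes is brighter in every E15.5 set than in any E14.5 set, while Calcoco1 at the bottom is darker.

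The trypsinogen genes described here were at 23.5 CPM or less in every E14.5 set. Prss1, a trypsinogen (chr6:41458932-41463786, plus strand, GENCODE positions on GRCm38), was at 199.7, 307 and 34.1 CPM in the E15.5 sets, against 0, 0, 0 and 0 CPM in the E14.5 sets. No E14.5 set had a single Prss1 count, so its mean was at least 2944-fold higher at E15.5 against a limit of 3 counts over the E14.5 group (adjusted p = 0.0277). Prss2, the other main trypsinogen, was at 1166, 534 and 216 CPM in the E15.5 sets, against 21.8, 23.5, 9.82 and 5.38 CPM in the E14.5 sets, a log2 fold change of 5.66 ± 0.74 (SE, adjusted p = 0.0178). The E15.5 sets did not overlap the E14.5 sets for either gene, and E15.5 set 3 was the lowest of its day for both.

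Try5 and Gm10334 lie with Prss1 and Prss2 in 1 trypsinogen cluster on chromosome 6. Try5 was at 216, 222 and 57.3 CPM in the E15.5 sets, against 0.705, 0, 0.578 and 0.0414 CPM in the E14.5 sets (log2 fold change 9.34 ± 0.98 SE, adjusted p = 0.0105). Gm10334 averaged 50.5 ± 25.3 CPM in the E15.5 sets and 0.0775 ± 0.0899 CPM in the E14.5 sets (SD, n = 3 and 4, as for all means of sets here). The copies of this cluster are near identical in sequence and the counting of reads shared between them is not given in the sources used here, so the level of any single copy is uncertain. Try10, another copy, had a log2 fold change of 8.39 ± 1.37 (SE, adjusted p = 0.0555) and did not pass.

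Among the elastases, Cela2a was at 725, 1009.7 and 172 CPM in the E15.5 sets, against 3.17, 1.49, 1.23 and 0.0414 CPM in the E14.5 sets. Its log2 fold change was 9.35 ± 1.14 (SE, adjusted p = 0.0151). Cela3b was at 805, 1254 and 141 CPM in the E15.5 sets, against 7.4, 6.1, 3.39 and 3.89 CPM in the E14.5 sets, with a log2 fold change of 7.45 ± 0.78 (SE, adjusted p = 0.0105). Cela1 differed less, with 1256 ± 162 CPM in the E15.5 sets and 194 ± 62.7 CPM in the E14.5 sets and a log2 fold change of 2.91 ± 0.32 (SE, adjusted p = 0.0132). For all 3 elastases every E15.5 set was above every E14.5 set, and E15.5 set 3 was the lowest of its day.

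Enzymes that every E14.5 set already held at over 100 CPM were higher again a day later. Ctrb1, chymotrypsinogen B, was at 29382, 42132 and 12412 CPM in the E15.5 sets, against 1062, 2304, 1162 and 654 CPM in the E14.5 sets, a log2 fold change of 4.67 ± 0.57 (SE, adjusted p = 0.0151). Clps, the colipase that anchors pancreatic lipase to fat droplets, was at 10361, 15363 and 5363 CPM in the E15.5 sets, against 373, 452, 896 and 263 CPM in the E14.5 sets (log2 fold change 4.61 ± 0.54 SE, adjusted p = 0.0136). In both genes the lowest E15.5 set, set 3, was well above the highest E14.5 set. Pnliprp1, a lipase-related protein, had a log2 fold change of 3.77 ± 0.50 (SE, adjusted p = 0.0178) and Cel, the bile-salt-dependent ester lipase, one of 3.83 ± 0.39 (SE, adjusted p = 0.0105).

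Rnase1, the pancreatic ribonuclease, was at 142, 443 and 134 CPM in the E15.5 sets, against 0, 0, 0.0361 and 0.828 CPM in the E14.5 sets. Its log2 fold change was 9.81 ± 1.05 (SE, adjusted p = 0.0105), and the reads at E14.5 numbered 1 in set 3 and 20 in set 4. The carboxypeptidase zymogen Cpa1, an early marker of tip cells, did not pass. It was at 8338, 10184 and 5786 CPM in the E15.5 sets, against 256, 4489, 2031 and 731 CPM in the E14.5 sets (log2 fold change 2.34 ± 0.79 SE, adjusted p = 0.288), and E14.5 set 1 was the lowest. The sets of the days did not overlap for Cpa1, as held for 6.19% of all genes tested in that direction.

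Of the 25 tested enzymes 24 had a positive log2 fold change and their median was 5.66. Amy2b, a pancreatic amylase copy that the annotation used lists as an unprocessed pseudogene, was at 829, 1449.9 and 1261 CPM in the E15.5 sets, against 24.3, 106, 48.8 and 6.29 CPM in the E14.5 sets and narrowly missed the threshold (log2 fold change 4.87 ± 0.81 SE, adjusted p = 0.0616). Its sets did not overlap. Pnlip, the classical pancreatic lipase, reached 50 CPM in no cell of either day.

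Genes of the granules into which zymogens are packed came next. Syncollin (Sycn), a protein of the zymogen granule membrane, was at 134, 190.5 and 54.1 CPM in the E15.5 sets, against 1.76, 8.54, 5.38 and 1.78 CPM in the E14.5 sets, with a log2 fold change of 5.06 ± 0.70 (SE, adjusted p = 0.0251). Reg1, a secreted lectin of acinar cells, averaged 183 ± 108 CPM in the E15.5 sets and 8.99 ± 4.87 CPM in the E14.5 sets (log2 fold change 4.55 ± 0.56 SE, adjusted p = 0.0151). Spink3, the inhibitor that restrains trypsin inside the acinar cell, was at 414 ± 204 CPM in the E15.5 sets and 34 ± 28.1 CPM in the E14.5 sets without passing (log2 fold change 3.83 ± 0.69 SE, adjusted p = 0.0842). The cholecystokinin receptor gene Cckar had a log2 fold change of 1.94 ± 0.40 (SE, adjusted p = 0.134), also short of the threshold. Of the 11 tested granule genes 10 had a positive value and their median was 1.91.

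Water channels, which belong to no list, stood near the top of the genes that passed. Aqp8, an aquaporin of the apical acinar membrane, was at 136, 204 and 32 CPM in the E15.5 sets, against 0, 0, 0.181 and 0 CPM in the E14.5 sets (log2 fold change 10.79 ± 1.07 SE, adjusted p = 0.0105), and 3 of the 4 E14.5 sets had no count. Aqp12, an aquaporin found inside acinar cells and picked out after its values were seen, averaged 38.6 ± 21.6 CPM in the E15.5 sets and 0.0414 ± 0.0828 CPM in the E14.5 sets (log2 fold change 9.41 ± 1.20 SE, adjusted p = 0.0178).

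In the ER folding list 3 of 24 genes passed, and all 24 had a positive value with a median of 0.75. Erp27, an ER protein that binds unfolded chains, was at 167, 198 and 152 CPM in the E15.5 sets, against 6.34, 14.9, 18 and 6.5 CPM in the E14.5 sets, a log2 fold change of 4.10 ± 0.43 (SE, adjusted p = 0.0105). Pdia2, a protein disulfide isomerase of the pancreas, averaged 26.7 ± 21.8 CPM in the E15.5 sets and 0.172 ± 0.179 CPM in the E14.5 sets (log2 fold change 7.42 ± 1.10 SE, adjusted p = 0.0342). Herpud1, part of the machinery that sends misfolded proteins to degradation, was at 281, 278 and 219 CPM in the E15.5 sets, against 71.9, 64.6, 91.4 and 88.5 CPM in the E14.5 sets (log2 fold change 1.93 ± 0.23 SE, adjusted p = 0.0136). Hspa5 (BiP), the most general ER chaperone, did not pass and averaged 1586 ± 330.1 CPM in the E15.5 sets and 1224 ± 202 CPM in the E14.5 sets (log2 fold change 0.59 ± 0.25 SE, adjusted p = 0.396). None of the 18 tested translocation genes passed in edgeR, 12 had an unadjusted p under 0.05 with a higher value, against 6.96% of all genes tested, and the median was 0.75. DESeq2 called 5 of them higher and limma 0.

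Fkbp11, Serp1, Rrbp1 and Reep5, ER genes on no list, also passed and were picked out after their values were seen. The first, Fkbp11, a prolyl isomerase of the secretory pathway, averaged 258 ± 97.8 CPM in the E15.5 sets and 25.8 ± 18.3 CPM in the E14.5 sets (log2 fold change 3.55 ± 0.52 SE, adjusted p = 0.0321). Serp1, which stabilises membrane proteins at the translocon, averaged 1543 ± 359.9 CPM in the E15.5 sets and 561 ± 109 CPM in the E14.5 sets (log2 fold change 1.68 ± 0.26 SE, adjusted p = 0.043). Rrbp1, which binds ribosomes to the rough ER, had a log2 fold change of 1.97 ± 0.30 (SE, adjusted p = 0.0424) and Reep5, which shapes ER tubules, one of 2.77 ± 0.35 (SE, adjusted p = 0.0156).

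Among 7 acinar transcription factors only Rbpjl, the acinar subunit of PTF1, passed. It was at 420.0, 562 and 439 CPM in the E15.5 sets, against 29.6, 67.4, 62.8 and 39.4 CPM in the E14.5 sets, a log2 fold change of 3.46 ± 0.33 (SE, adjusted p = 0.0105). Every E15.5 set was far above the highest E14.5 set. Ptf1a, its bHLH partner, was at 154, 175 and 141 CPM in the E15.5 sets, against 26.8, 68.5, 42.5 and 22.8 CPM in the E14.5 sets and missed the threshold (log2 fold change 2.17 ± 0.39 SE, adjusted p = 0.0842) with sets that did not overlap. Bhlha15 (Mist1), which builds the secretory machinery, averaged 269 ± 64.5 CPM in the E15.5 sets and 106 ± 40.4 CPM in the E14.5 sets (log2 fold change 1.57 ± 0.37 SE, adjusted p = 0.164), and Gata4 averaged 98.1 ± 20.005 CPM in the E15.5 sets and 41.7 ± 19.9 CPM in the E14.5 sets (log2 fold change 1.45 ± 0.43 SE, adjusted p = 0.238). Of the 7 factors 6 had a positive value and the median was 1.57.

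PTF1 is known to bind a bipartite site made of an E-box and a TC-box bound by Rbpj or Rbpjl. The promoters of genes higher at E15.5 were therefore read for both half-sites, CACCTG and TGGGAAA, on either strand, in RefSeq windows on GRCm38.p6 that run from 250 bases before to 50 bases after the start. Of the 46 higher genes 36 matched a window by symbol. The E-box letters stood in a window of 18 of 36 genes (50%), against 22.6% of all 27025 gene symbols, tested here or not. The TC-box letters stood in a window of 8 of 36 genes (22.2%), against 9.16% of all symbols. Both motifs, whatever their spacing, were found for 3 genes (Cela2a, Prss2 and Cel, 8.33%), against 1.89% of all symbols. The motifs were chosen after the genes were known, and a match of letters is a description and not a bound site. Windows are shown for an elastase and a lipase with the letters of both motifs. Also shown are Ctrb1, with the searched TC-box letters only, and Rbpjl itself, with the searched E-box letters only. Other forms of either half-site were not searched or marked. The motif letters are in capitals and each window runs 5′ to 3′ on the gene's strand.
Cela2a (chr4:141825956-141826255, minus strand): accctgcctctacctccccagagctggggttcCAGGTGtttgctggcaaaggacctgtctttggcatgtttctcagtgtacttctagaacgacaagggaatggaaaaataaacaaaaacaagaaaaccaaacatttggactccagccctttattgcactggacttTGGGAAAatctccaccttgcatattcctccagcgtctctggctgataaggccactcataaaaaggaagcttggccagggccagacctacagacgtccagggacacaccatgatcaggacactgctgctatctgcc
Cel (chr2:28563354-28563653, minus strand): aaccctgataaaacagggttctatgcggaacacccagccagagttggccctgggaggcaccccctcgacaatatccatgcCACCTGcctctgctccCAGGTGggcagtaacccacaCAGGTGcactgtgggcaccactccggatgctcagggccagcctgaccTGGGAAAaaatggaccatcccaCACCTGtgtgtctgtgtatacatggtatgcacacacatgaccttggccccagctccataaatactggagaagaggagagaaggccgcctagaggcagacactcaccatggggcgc
Ctrb1 (chr8:111690961-111691260, minus strand): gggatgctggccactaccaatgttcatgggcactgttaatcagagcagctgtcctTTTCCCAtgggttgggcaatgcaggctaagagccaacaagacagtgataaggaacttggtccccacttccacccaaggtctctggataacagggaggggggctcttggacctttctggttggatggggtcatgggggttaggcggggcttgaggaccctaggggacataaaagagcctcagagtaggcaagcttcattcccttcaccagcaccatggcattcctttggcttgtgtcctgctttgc
Rbpjl (chr2:164402944-164403243, plus strand): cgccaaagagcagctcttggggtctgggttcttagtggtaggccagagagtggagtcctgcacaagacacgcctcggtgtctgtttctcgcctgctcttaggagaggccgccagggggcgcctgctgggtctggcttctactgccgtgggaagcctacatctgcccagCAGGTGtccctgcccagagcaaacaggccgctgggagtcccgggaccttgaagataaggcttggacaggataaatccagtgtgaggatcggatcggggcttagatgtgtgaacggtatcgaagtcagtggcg
In Cela2a the TC-box letters began 85 bases before the start and the E-box letters 218 bases before it. In Cel the TC-box letters began 87 bases before the start, with E-box letters at 65, 134, 154 and 170 bases before it.

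Creatine synthesis, which takes amino acids as its substrates, was represented by both of its enzymes among the higher genes. Gatm, which carries out the first step, averaged 109 ± 38.7 CPM in the E15.5 sets and 11.3 ± 3.8 CPM in the E14.5 sets (log2 fold change 3.52 ± 0.41 SE, adjusted p = 0.0136). Gamt, which carries out the step after it, averaged 394 ± 91.5 CPM in the E15.5 sets and 93.4 ± 21.5 CPM in the E14.5 sets (log2 fold change 2.29 ± 0.28 SE, adjusted p = 0.0151). These 2 of 15 genes passed on the list of amino acid and one-carbon supply, where 14 had a positive value and the median was 1.07. Ass1, which makes argininosuccinate, missed the threshold (log2 fold change 3.35 ± 0.60 SE, adjusted p = 0.0842).

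Several genes on no list also passed, of which Gstm1, Ggh, Cbs, Bcat2 and Igf1 were picked out after their values were seen. Aldh1a1, which makes retinoic acid, was at 80.1, 149 and 52.1 CPM in the E15.5 sets, against 8.1, 1.9, 2.53 and 3.35 CPM in the E14.5 sets (log2 fold change 4.88 ± 0.63 SE, adjusted p = 0.0178). Gstm1, a glutathione transferase, was at 959, 1010.4 and 893 CPM in the E15.5 sets, against 105, 222, 95.9 and 108 CPM in the E14.5 sets, a log2 fold change of 3.06 ± 0.33 (SE, adjusted p = 0.0105), and its 3 E15.5 sets lay close together. Ggh, which trims folate polyglutamates, averaged 198 ± 27.5 CPM in the E15.5 sets and 30.9 ± 11.8 CPM in the E14.5 sets (log2 fold change 2.89 ± 0.32 SE, adjusted p = 0.0132). Cbs, an enzyme of transsulfuration, had a log2 fold change of 2.48 ± 0.33 (SE, adjusted p = 0.0178) and Bcat2, the mitochondrial aminotransferase of branched-chain amino acids, one of 2.15 ± 0.26 (SE, adjusted p = 0.0151). Igf1, a secreted growth factor, averaged 223 ± 65.3 CPM in the E15.5 sets and 23.6 ± 11.46 CPM in the E14.5 sets (log2 fold change 3.45 ± 0.43 SE, adjusted p = 0.0152). The other genes that passed, listed after their values were seen, were Gypc, RP24-260I8.2, Serpini2, Rab26, Nupr1, Stbd1, Dhx34, Car9, Chac2, Ttc23, Mgll, Marc2, Fam81a and Aldh9a1, all higher, with log2 fold changes between 1.52 and 9.39.

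Calcoco1, a coiled-coil protein with a role in autophagy of the ER, was the single gene that passed with a lower level at E15.5. It was at 28.9, 30.01 and 33 CPM in the E15.5 sets, against 88.1, 120.4, 96.4 and 130.0 CPM in the E14.5 sets, a log2 fold change of -1.62 ± 0.24 (SE, adjusted p = 0.0342). The E15.5 sets lay close together, below all 4 E14.5 sets. When cells with at least 4 endocrine-class markers were left out, which was added after the data were seen, 37 genes were higher and none was lower in edgeR (1238 genes at an unadjusted p under 0.05 in either direction). Of the 47 genes 26 were among those 37, and the calls of the others were lost, that of Calcoco1 with a log2 fold change of -1.40 (adjusted p = 0.469).

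None of 16 endocrine progenitor genes passed in edgeR. All 16 log2 fold changes were negative with a median of -2.24, DESeq2 called 5 of them lower and limma 0, and 10 had an unadjusted p under 0.05, against 5.05% of all genes tested with a lower value at that level. Neurog3, the factor that commits cells to the endocrine fate, was at 177, 0 and 137 CPM in the E15.5 sets, against 26.8, 592, 755 and 829 CPM in the E14.5 sets (log2 fold change -2.19 ± 1.49 SE, adjusted p = 0.613). E15.5 set 2 had no count and E14.5 set 1 fell among the E15.5 sets, so the days overlapped. Pax4, which acts next in the beta lineage, was at 14.45, 0 and 14.4 CPM in the E15.5 sets, against 29.9, 163, 229 and 184 CPM in the E14.5 sets (log2 fold change -3.76 ± 1.16 SE, adjusted p = 0.253) with sets that did not overlap. Cells with Neurog3 at 50 CPM or more numbered 2 of 24, 0 of 8 and 5 of 47 in the E15.5 sets, against 1 of 6, 5 of 15, 21 of 61 and 16 of 44 in the E14.5 sets.

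The later endocrine precursor list had 11 negative values among 11 tested, a median of -1.62 and no gene past the threshold in edgeR. At an unadjusted p under 0.05 there were 4, all lower, against 5.05% of all genes tested. DESeq2 called 4 lower, against 250 of all 15126 genes, and limma 0. Fev, a factor of these precursors, was at 1.5, 8.23 and 71.2 CPM in the E15.5 sets, against 173, 139, 143 and 21.7 CPM in the E14.5 sets (log2 fold change -2.02 ± 1.13 SE, adjusted p = 0.52). Vwa5b2 was at 28.5, 36.1 and 189.8 CPM in the E15.5 sets, against 529, 263, 574 and 599.5 CPM in the E14.5 sets (log2 fold change -2.38 ± 0.65 SE, adjusted p = 0.217). Pdx1, which is expressed in early progenitors and later in beta cells, was at 61.9, 59.9 and 97.2 CPM in the E15.5 sets, against 234, 119, 161 and 197 CPM in the E14.5 sets (log2 fold change -1.09 ± 0.29 SE, adjusted p = 0.212), with every E15.5 set below every E14.5 set, as for 8.81% of all genes tested. Nkx6-1, a factor of the trunk and of beta cells, had a log2 fold change of -1.47 ± 0.51 (SE, adjusted p = 0.299).

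None of 24 trunk and duct genes passed in edgeR, and their median was -0.21. At an unadjusted p under 0.05 there were 3 higher and 2 lower, against 6.96% and 5.05% of all genes tested. DESeq2 called 2 higher and 2 lower, against 407 and 250 of all 15126 genes, and limma 0. Sox9, a factor of the trunk and of ducts, was at 238, 106 and 204 CPM in the E15.5 sets, against 41.2, 561, 283 and 310.5 CPM in the E14.5 sets (log2 fold change -0.50 ± 0.66 SE, adjusted p = 0.827). Spp1, a secreted duct marker, and Hes1, the Notch target, had log2 fold changes of -1.01 ± 1.16 (SE, adjusted p = 0.794) and -0.24 ± 0.43 (SE, adjusted p = 0.877). The sets of the days overlapped for Sox9, Spp1 and Hes1, and the signs of Sox9, Spp1 and Hes1 turned under alternatives given in the closing section.

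Hormone genes varied within a day by more than between the days. Gcg (glucagon) was at 4739, 1.59 and 10440.2 CPM in the E15.5 sets, against 18974, 2013, 3625 and 2738 CPM in the E14.5 sets (log2 fold change -0.31 ± 1.58 SE, adjusted p = 0.966). Ins2 (insulin) was at 5939, 156 and 93.2 CPM in the E15.5 sets, against 9.51, 0.136, 1229 and 1056 CPM in the E14.5 sets (log2 fold change 2.11 ± 2.00 SE, adjusted p = 0.742), and 1 cell of E15.5 set 1 was at 123578 CPM. Ins1 followed Ins2, with a log2 fold change of 2.21 ± 2.04 (SE, adjusted p = 0.732). Without E15.5 set 1 the values were -1.97 for Ins2 and -1.66 for Ins1, and without E14.5 set 1 that of Gcg was 1.02. In E15.5 set 2 all 8 cells had Ins2 at 61.4 CPM or more (61.4 to 526, median 113), although 1 of them was of the endocrine class. Every cell of E14.5 set 4 had some Ins2 too (median 21.5 CPM, lowest 1.74), while the median cell of the other 5 sets had 0. The cause of this spread was not tested.

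Cells were then assigned to classes: a cell carried a class when at least 4 of its 10 markers were at 50 CPM or more, and a cell that carried 2 or more of the acinar, trunk and duct, and endocrine classes was called mixed. The acinar class held 11 of 24, 2 of 8 and 14 of 47 cells in the E15.5 sets, against 0 of 6, 4 of 15, 4 of 61 and 4 of 44 cells in the E14.5 sets. The mean share was 33.5% ± 10.9 at E15.5 and 10.6% ± 11.4 at E14.5 (SD, n = 3 and 4), and the sets overlapped through E14.5 set 2. The endocrine class went the other way, with a mean of 17.6% ± 12.6 at E15.5 and 46.1% ± 26.7 at E14.5. An exact permutation test over sets, two-sided, gave p = 0.114 for both, or 0.419 after adjustment over the classes. With 3 against 4 sets the smallest p this test can give is 0.0571, so no share could pass.

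Mixed cells numbered 22 at E15.5 and 32 at E14.5, with a make-up that was counted and not tested. At E15.5 all 22 combined acinar with trunk and duct markers, and no cell combined trunk and duct with endocrine markers. At E14.5 there were 17 cells of each of these combinations, and 2 cells combined acinar with endocrine markers. A cell that carried every class counts in each combination, so these counts overlap. Not all trunk and duct markers were particular to that class. Over both days Ambp reached 50 CPM in 100% of acinar-class and 85.5% of endocrine-class cells, and Sox9 in 76.9% of acinar-class cells. The other trunk and duct markers did so in at most 30.8% of acinar-class cells (Hes1). Mixed is therefore a count of markers and does not name a cell type. Cells of the trunk and duct class, which had fewer than 4 markers of either other class, numbered 5 at E15.5 and 18 at E14.5.

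Mean shares of cells with genes of DNA replication and mitosis were larger at E15.5, within the limits of this test. At least 4 S phase genes were at 50 CPM or more in 83.1% ± 11.4 of the cells of an E15.5 set and 55% ± 25.8 of an E14.5 set (exact permutation p = 0.114). For genes of G2 and mitosis the shares were 60.8% ± 16 and 31.4% ± 16.4 in the E15.5 and E14.5 sets (exact permutation p = 0.171). Every cell was also thinned to 333744 counts, an alternative added after the data were seen. The G2 and mitosis shares were then 63.6% at E15.5 and 31.4% at E14.5. Thinning reads does not equalise the molecules captured, and an effect of depth was not tested. In the summed counts all 20 G2 and mitosis genes had a positive log2 fold change, with a median of 0.90, and none passed in edgeR. At an unadjusted p under 0.05 there were 10, all higher, against 6.96% of all genes tested. DESeq2 called 1 higher, against 407 of all 15126 genes, and limma 0. Mki67, a proliferation marker, was at 225, 147 and 88.8 CPM in the E15.5 sets, against 28.9, 79.9, 35.6 and 97 CPM in the E14.5 sets (log2 fold change 1.59 ± 0.48 SE, adjusted p = 0.243). Top2a, a mitotic topoisomerase, and Myc, a growth factor-driven transcription factor, had log2 fold changes of 0.55 ± 0.46 (SE, adjusted p = 0.695) and 1.08 ± 0.45 (SE, adjusted p = 0.396). The sets overlapped for all 3.

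**Figure D2:**
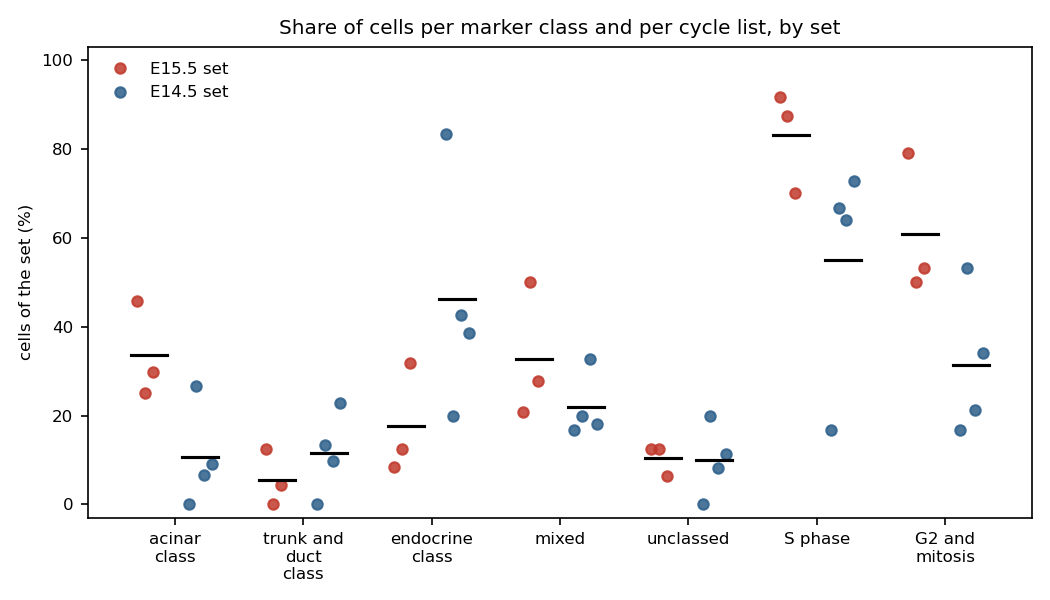
Share of the cells of each set, in percent, that fall in each marker class or carry the S phase or the G2 and mitosis list; points are sets, red for the 3 E15.5 sets and blue for the 4 E14.5 sets, and bars are means over sets. The acinar class means lie at 33.5% and 10.6% and the endocrine class means at 17.6% and 46.1% in E15.5 and E14.5, with overlapping points in both.

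To look at cells with acinar markers alone, all cells with at least 4 acinar markers at 50 CPM or more were taken, mixed cells included. They numbered 16 of 24, 6 of 8 and 27 of 47 in the E15.5 sets, against 1 of 6, 6 of 15, 14 of 61 and 8 of 44 in the E14.5 sets. The share in every E15.5 set, 57.4% at the lowest, was above the 40% of the highest E14.5 set. Digestive enzymes took a median of 8.81% of such a cell's counts at E15.5 (0.272% to 28.2%) and 2.68% at E14.5 (0.0795% to 7.97%). That sum includes markers that chose the cells, Ctrb1 and Clps among them, so it is a description only.

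The number of different enzymes per cell was counted next. Of 23 listed enzymes that had no part in choosing the cells, an acinar-marker cell had a median of 8 at 50 CPM or more at E15.5 (2 to 14) and 3 at E14.5 (0 to 5). By set the medians were 9.5, 10 and 7 at E15.5, against 4, 3, 3 and 2.5 at E14.5. The median counts of these cells were 1006470, 862880 and 509566 in E15.5 sets 1, 2 and 3. In the E14.5 sets they were 442700 to 561330. E15.5 set 3 had the lowest E15.5 median number of enzymes, above those of all E14.5 sets. Depth and day cannot be told apart for E15.5 sets 1 and 2, and a part played by depth was not tested. No cell at E14.5 had more than 5 of these enzymes.

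**Figure D3:**
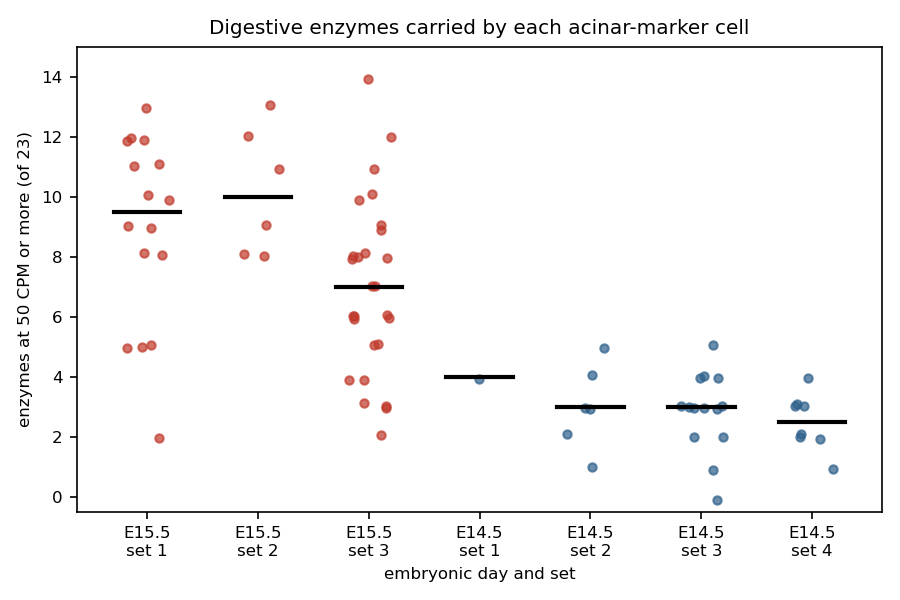
Each point is an acinar-marker cell, placed by set with a small random offset, and the vertical axis counts how many of 23 digestive enzymes that were not used to choose the cells reach 50 CPM. Black bars are set medians, 9.5, 10 and 7 in the E15.5 sets and 4, 3, 3 and 2.5 in the E14.5 sets.

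The enzymes fell into groups by how many of these cells carried them. Pnliprp1 was carried by 49 of 49 at E15.5 and 28 of 29 at E14.5, and Cela1 by 49 of 49 at E15.5 and 25 of 29 at E14.5, so both were general at both days. Amy2b was carried by 44 of 49 at E15.5 and 11 of 29 at E14.5 and Prss2 by 36 of 49 at E15.5 and 10 of 29 at E14.5. Cela3b was carried by 32 of 49 at E15.5 and 2 of 29 at E14.5. These enzymes were thus present in part of the cells at E14.5.

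Other enzymes were at 50 CPM in no acinar-marker cell at E14.5, which is 0 of 29 cells. Cela2a was carried by 35 of 49 at E15.5 and 0 of 29 at E14.5, Try10 by 28 of 49 at E15.5 and 0 of 29 at E14.5 and Rnase1 by 22 of 49 at E15.5 and 0 of 29 at E14.5. Prss1 was carried by 21 of 49 at E15.5 and 0 of 29 at E14.5 and Try5 by 20 of 49 at E15.5 and 0 of 29 at E14.5. Outside the enzymes Aqp8 was carried by 23 of 49 at E15.5 and 0 of 29 at E14.5 and Sycn by 22 of 49 at E15.5 and 2 of 29 at E14.5. In the cells with fewer than 4 acinar markers none of Cela2a, Prss1, Rnase1 and Aqp8 reached 50 CPM on either day (30 cells at E15.5 and 97 cells at E14.5). Cells of 1 set share their source, so these counts describe the cells and were not tested.

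**Figure D4:**
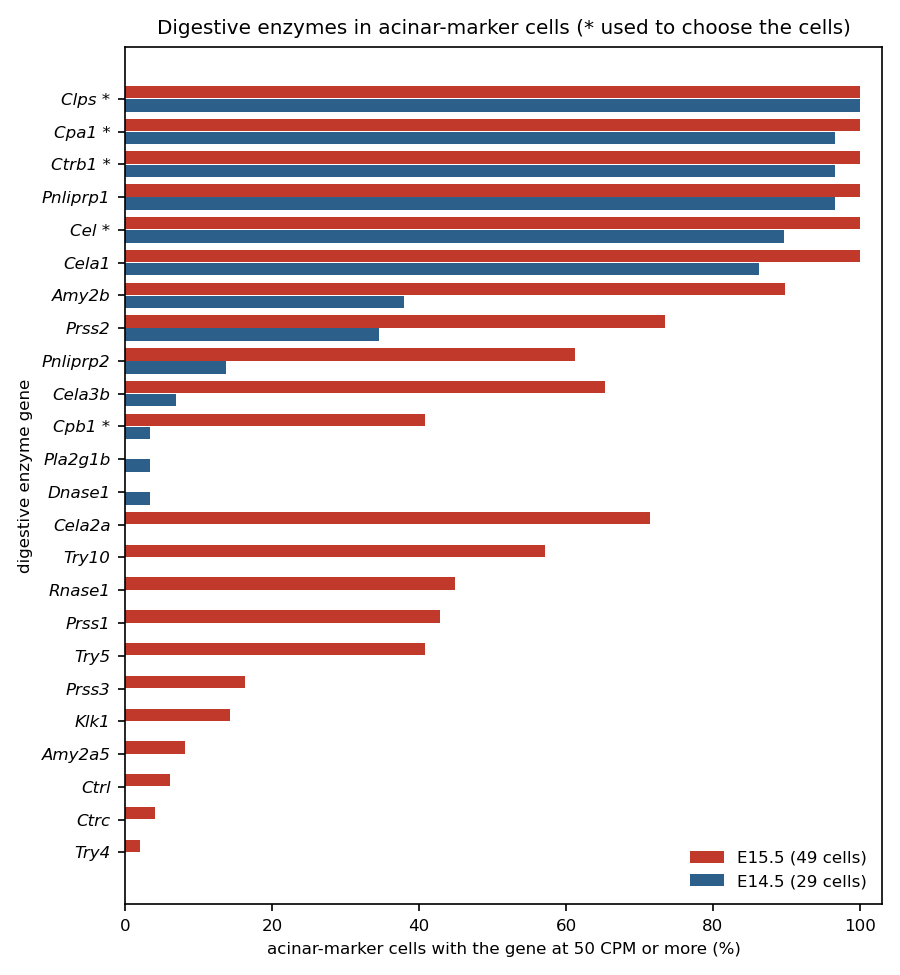
Share of acinar-marker cells, in percent, in which each digestive enzyme shown reaches 50 CPM, red for 49 cells at E15.5 and blue for 29 cells at E14.5; genes with an asterisk were among the markers that chose the cells. Pnliprp1 and Cela1 are near the full share at both days, while Cela2a, Try10, Rnase1, Prss1 and Try5 have no blue bar.

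Levels within acinar-class cells were tested on counts summed per set. At 50 CPM no E14.5 set kept 5 acinar-class cells, so a fit at that level could not be made, and markers at 100 CPM were used instead. There the class held 14, 6 and 22 cells in the E15.5 sets, against 5, 8 and 5 cells in E14.5 sets 2, 3 and 4. Of 10723 genes 88 passed in edgeR (0.821%), 70 higher at E15.5 (0.653%) and 18 lower (0.168%). At an unadjusted p under 0.05 there were 1360 genes (12.7%), 7.37% of all genes higher and 5.32% lower. Without the class markers, which the class rule used, 84 remained, 66 higher and 18 lower. Leaving out E15.5 set 1, 2 or 3 gave 25, 25 and 62 higher genes with 0, 0 and 10 lower ones in edgeR, and 909 and 883 genes had an unadjusted p under 0.05 where none was lower. Leaving out E14.5 set 2, 3 or 4 gave 46, 37 and 41 higher genes with 2, 5 and 3 lower ones. With all acinar-marker cells in place of the class, an alternative added after the data were seen, 55 genes were higher (0.481%) and 4 lower (0.0350%), and 51 of these 59 were among the 88.

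Enzymes led the higher genes within the class. Rnase1 was at 251, 587 and 286 CPM in acinar-class cells of the E15.5 sets, against 0, 0 and 0 CPM in those of E14.5 sets 2, 3 and 4, at least 928-fold higher against a limit of 3 counts over the E14.5 group (adjusted p = 0.00086). Cela2a was at 1292, 1338 and 353 CPM in acinar-class cells of the E15.5 sets, against 4.32, 6.63 and 0.38 CPM in those of E14.5 sets 2, 3 and 4, a log2 fold change of 8.24 ± 0.79 (SE, adjusted p = 0.00207). Slc26a9, an anion transporter of epithelia, was at 69.1, 119 and 21.9 CPM in acinar-class cells of the E15.5 sets, against 0, 0 and 0 CPM in those of E14.5 sets 2, 3 and 4, at least 174-fold higher (adjusted p = 0.0118). In all acinar-marker cells Rnase1 passed with a log2 fold change of 8.11 (adjusted p = 0.0184), where E14.5 had some counts. There Slc26a9 had 18 counts in E14.5 set 4 and did not pass, with a log2 fold change of 5.87 (adjusted p = 0.112). Prss1, Try5, Gm10334 and Gm5771, all of the trypsinogen family, were also among the largest differences, as was Aqp8 (log2 fold change 8.64 ± 0.92 SE, adjusted p = 0.00312). Of these Gm5771 did not pass in all acinar-marker cells (adjusted p = 0.062). For Rnase1, Cela2a and Slc26a9 every E15.5 set was above every E14.5 set, as for 8.08% of all genes tested. Of 23 tested enzymes 13 were higher, class markers included, and all 23 values were positive with a median of 3.80, while 5332 of all 10723 genes tested were positive.

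Of the zymogen granule list 3 of 11 genes passed within the class, Sycn, Rab3d and Reg1, and of the ER translocation list 1 of 18, Srp9, all higher. Sycn had a log2 fold change of 7.03 ± 0.58 (SE, adjusted p = 0.00086) and Rab3d, a small GTPase on zymogen granules, one of 1.97 ± 0.27 (SE, adjusted p = 0.0116). In all acinar-marker cells neither passed, with log2 fold changes of 3.98 (adjusted p = 0.0519) for Sycn and 1.83 (adjusted p = 0.094) for Rab3d, nor did Srp9 (adjusted p = 0.094), while Reg1 did. Rab27b, another GTPase of secretory granules that is on no list and was picked out after its values were seen, was at 76.4, 71.5 and 74.4 CPM in acinar-class cells of the E15.5 sets, against 11.8, 3.17 and 2.66 CPM in those of E14.5 sets 2, 3 and 4 (log2 fold change 3.91 ± 0.61 SE, adjusted p = 0.0211). On the ER folding list 5 of 24 genes passed, all higher: Pdia2, Erp27, Herpud1, Sel1l and Edem1, of which Sel1l and Edem1 act in the disposal of misfolded ER proteins. Sel1l was at 548, 496 and 289 CPM in acinar-class cells of the E15.5 sets, against 77.4, 96.9 and 103 CPM in those of E14.5 sets 2, 3 and 4 (log2 fold change 2.53 ± 0.29 SE, adjusted p = 0.00508). Ass1 was at 521, 543 and 388 CPM in acinar-class cells of the E15.5 sets, against 38.1, 36.3 and 31.6 CPM in those of E14.5 sets 2, 3 and 4, a log2 fold change of 4.03 ± 0.26 (SE, adjusted p = 0.00031).

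The 18 genes lower within the class rest on the sets and cells chosen, since none was lower without E15.5 set 1 or set 2. Ccnd1, the G1 cyclin D1, was at 33.4, 34.6 and 70.6 CPM in acinar-class cells of the E15.5 sets, against 168, 147 and 264 CPM in those of E14.5 sets 2, 3 and 4 (log2 fold change -1.82 ± 0.34 SE, adjusted p = 0.0456). Grb10, an imprinted adaptor that dampens insulin and growth factor signals, was at 203, 177 and 259 CPM in acinar-class cells of the E15.5 sets, against 657, 612 and 903 CPM in those of E14.5 sets 2, 3 and 4 (log2 fold change -1.51 ± 0.19 SE, adjusted p = 0.00806). Dlk1, an imprinted surface protein of immature cells, was at 164, 143 and 216 CPM in acinar-class cells of the E15.5 sets, against 410.0, 371 and 514 CPM in those of E14.5 sets 2, 3 and 4 (log2 fold change -1.06 ± 0.20 SE, adjusted p = 0.0457). The sets of the days did not overlap for any of the 3, as held for 14.8% of all genes tested in that direction. In all acinar-marker cells Grb10 passed at -1.36 (adjusted p = 0.0285), but Ccnd1 did not at -1.10 (adjusted p = 0.318), nor Dlk1 at -0.64 (adjusted p = 0.37), on the log2 scale.

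The rule for naming added further lower genes. Tpst1, which sulfates tyrosines of secreted proteins, was at 8.09, 2.87 and 11 CPM in acinar-class cells of the E15.5 sets, against 93.9, 68.3 and 47.9 CPM in those of E14.5 sets 2, 3 and 4 (log2 fold change -3.02 ± 0.57 SE, adjusted p = 0.0493). Tspan14, a tetraspanin, had a log2 fold change of -2.28 ± 0.34 (SE, adjusted p = 0.0166) and the heat shock protein Hsph1 one of -1.91 ± 0.34 (SE, adjusted p = 0.0391). Sept9, a septin, Ano6, a lipid scramblase, Hyal2, a hyaluronidase, and Marcksl1, an actin-binding protein, had log2 fold changes of -1.94, -1.86, -1.71 and -1.53. None of these 7 genes passed in all acinar-marker cells in edgeR, where all 7 had negative values, an unadjusted p under 0.05 and an adjusted p between 0.0702 for Ano6 and 0.231 for Tpst1.

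Cell cycle genes had mostly negative values within the class and positive ones in the sums over all cells. Of 18 S phase genes 17 had a positive log2 fold change over all cells (median 0.57), but 1 of 18 had one within the acinar class (median -0.61). None passed in edgeR in either. The unadjusted p was under 0.05 in 3 genes over all cells, all higher, against 6.96% of all genes tested. Within the class it was so in 7 genes, all lower, against 5.32%. DESeq2 called 1 higher over all cells, against 407 of all 15126 genes. It called 2 lower within the class, against 170 of all 10723 genes. The difference between these fits, which share cells, was not tested. For G2 and mitosis the positive counts were 20 of 20 over all cells and 2 of 20 within the class. The transcription factors Ptf1a, Bhlha15 and Nr5a2, which are class markers, are not given here, and Gata4 had a log2 fold change within the class of 0.59 ± 0.24 (SE, adjusted p = 0.348).

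The step to E15.5 was last set beside the earlier days of the same lineage. Mean Ctrb1 was 1.76, 5.02, 34.2, 199, 1296 and 27975 CPM from E10.5 to E15.5, a higher mean at every step. Mean Clps was 158, 331, 436, 569, 496 and 10363 CPM, nearly level from E12.5 to E14.5. Rbpjl averaged 1.59, 23.4, 27.6, 45.9, 49.8 and 474 CPM and Cela3b 0.0549, 0.0583, 0.301, 0.536, 5.2 and 733 CPM over the same days. Neurog3 averaged 81, 147, 57.7, 335, 551 and 105 CPM, with wide spread between sets from E12.5 on.

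Whether the step from E14.5 to E15.5 differed from that between E12.5 and E13.5 was tested as a difference of differences over the 15 sets of these 4 days. Of 17049 genes 19 passed in edgeR (0.111%), 15 with a larger step to E15.5 (0.0880%) and 4 with a smaller or more negative one (0.0235%). Clps passed with a difference of steps of 4.29 ± 0.74 on the log2 scale (SE), Cel with 3.97 ± 0.65 and Cela3b with 6.82 ± 1.22. Gstm1 had 3.61 ± 0.59 and Serp1 1.82 ± 0.33. Ctrb1, whose mean was higher at each step, did not pass (2.17, adjusted p = 0.175 in edgeR), nor did Rbpjl (2.79, adjusted p = 0.294). The count was 6, 22, 2 and 35 without E12.5 set 1, 2, 3 or 4, then 2, 5, 71 and 6 without an E13.5 set, 7, 136, 2 and 3 without an E14.5 set, and 239 without E15.5 set 3. Without E15.5 set 1 or set 2 it was 0 in edgeR (2138 and 2118 genes at an unadjusted p under 0.05), while DESeq2 called 399 and 419 genes on these sets, all 19 among them.

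**Figure D5:**
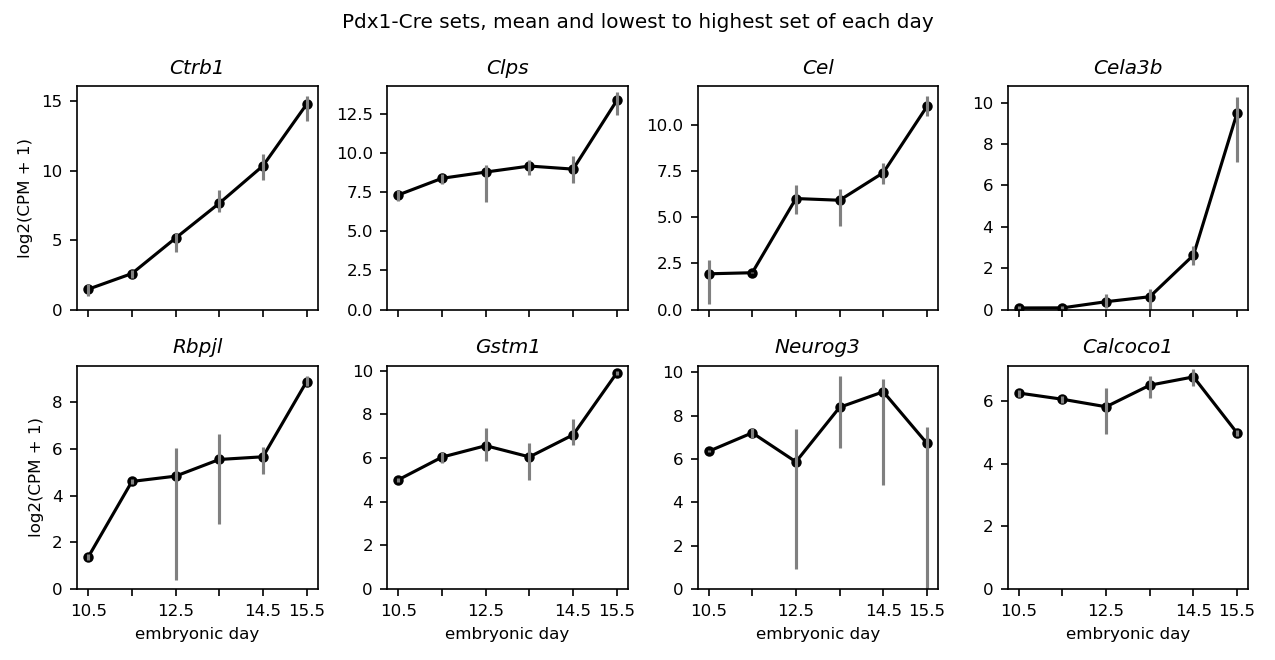
Level of 8 genes in the Pdx1-Cre sets of each embryonic day on a log2(CPM + 1) scale; points are means over sets and grey bars run from the lowest to the highest set. Clps, Cel, Cela3b, Rbpjl and Gstm1 turn upward at E15.5, Ctrb1 climbs over all days, Neurog3 spreads widely and Calcoco1 drops at E15.5 to 30.6 CPM, against 109 CPM at E14.5.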

How the data were processed

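Single cells labelled RFP positive were made into Smart-seq2 libraries, amplified by PCR without molecular identifiers, per the labels' protocols. The authors deposited a table of raw read counts per gene and cell; TopHat2 2.1.0, Bowtie2, HTSeq 0.6.0 and mm10 are named in the submitters' processing notes, and their settings, the annotation and strand use are not given in the sources used here. ERCC spike-in rows were left out and counts summed per set. Genes passing filterByExpr were tested with edgeR 4.0.16 (TMM, quasi-likelihood F test, Benjamini-Hochberg adjusted p under 0.05), with the standard error taken as the log2 fold change over the square root of F. DESeq2 1.42.0 and limma 3.58.1 (R 4.3.3) were alternatives, and the fits were tested on simulated data with 200 changed genes. Shares of cells were compared with exact permutation tests over sets (scipy 1.17.1). Positions come from GENCODE vM21 by Ensembl ID and promoters from RefSeq. The genes named were, among those past the threshold, averaging 50 CPM or more on either day, with sets that did not overlap, the 12 largest each way (8 each way within the acinar class and for the step, class markers left out), with the members of the lists and a set of known pancreatic genes; others are said to be picked out afterwards. The comparison, its members and the gene lists were chosen with earlier results of these data known. No cell repeated the counts of another. Intervals and upper limits cover counting error only. The deposited TPM table and the droplet data were not used. Some list members are not reported here. The alternatives were other tools and scalings, no filter, the set number as a block, leaving out sets or kinds of cells, and other marker thresholds.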

Additional observations from a re-analysis of the deposited data

Results flagged for a closer look

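Dixon's criterion was applied to the 4 E14.5 sets for 39 results, and chance marks about 1 in 20 groups. It marked 4 results: Aqp8 at 0.181 CPM in E14.5 set 3, where the others had 0, Rnase1 at 0.828 CPM in E14.5 set 4, Gcg at 18974 CPM in E14.5 set 1, and the share of cells with S phase genes, 16.7% in E14.5 set 1. With the other sets at 0, any count at all would have been marked for Aqp8, and Rnase1 was near this floor as well. The rate of 1 in 20 need not hold for such values. E14.5 set 1 held 6 cells, 5 of them of the endocrine class.

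For 19 genes the step to E15.5 from E14.5 differed from the step to E13.5 from E12.5 by the test of the difference itself (edgeR, adjusted p under 0.05). The values that follow are differences between the steps on the log2 scale, and not the steps themselves. The difference was 9.51 for Try5, 6.82 for Cela3b, 6.03 for Aldh1a1 and 4.29 for Clps. It was 3.97 for Cel, 3.61 for Gstm1, 3.32 for Ggh and 3.22 for Car9. Smaller differences were 3.14 for Hist1h2ap, 2.96 for Stbd1, 2.71 for Dhx34, 2.57 for Aldh9a1, 2.25 for Edem2, 2.22 for Rad18 and 1.82 for Serp1. The difference was negative for Calcoco1 (-2.28), Runx1t1 (-3.03), Ids (-3.46) and Pcyt1b (-3.91).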

How the results depend on the processing

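The comparison of the days gave 657 genes with DESeq2 (407 higher and 250 lower, all 47 among them), against 46 higher and 1 lower in edgeR, and 235 with all 19 sets of the lineage in the fit (172 higher, 63 lower). Without sets of fewer than 10 cells edgeR gave 0 genes (1519 at an unadjusted p under 0.05), DESeq2 448 and limma 6, and without E15.5 set 2 DESeq2 gave 216 and limma 0 (1403 at an unadjusted p under 0.05). Leaving out 1 set at a time gave 0 to 76. The test of the steps gave 839 genes with DESeq2, and without sets of fewer than 10 cells 0 in edgeR (2345 at an unadjusted p under 0.05) and 622 in DESeq2. DESeq2 gave 399 without E15.5 set 1 and 419 without E15.5 set 2, and leaving out 1 set gave 0 to 239. Within acinar-class cells DESeq2 gave 489, no filter on low counts 321, and sets with at least 3 cells at 50 CPM 21. With all acinar-marker cells DESeq2 gave 399, and leaving out 1 set gave 25 to 72 genes in the class and 3 to 69 in these cells. Same-numbered sets deviated with correlations of -0.046, 0.046 and 0.145, against -0.126 to 0.105 for other pairs of sets. With so few sets and no label for what a set is, this cannot settle whether the numbers pair the sets. With the replicate block the counts were 4 for the days, 7 for the steps and 42 within the class (41 higher and 1 lower).

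Gcg, at -0.31, had a log2 fold change of 0.19 with DESeq2 and 0.88 with limma without E15.5 set 2, 0.64 without cells with endocrine markers, and 1.61, 1.60 and 1.58 in edgeR, DESeq2 and limma without sets of fewer than 10 cells. With limma and without E15.5 set 2 Sox9 was at 0.067 and Spp1 at 0.50. Top2a was at -0.31 without cells with endocrine markers. With 1 set left out the log2 fold change lay between -1.31 and 1.02 for Gcg, -0.86 and 0.012 for Sox9, -0.48 and 0.22 for Hes1, -1.66 and 2.88 for Ins1, -1.97 and 2.84 for Ins2, and -0.15 and 0.84 for Top2a. The E15.5 minus E14.5 share of mixed cells was -7.43 points with markers at 100 CPM and -2.19 with at least 5 markers. That of unclassed cells was -3.75 without sets of fewer than 10 cells and -2.73 to 3.94 when 1 set was left out. The cause was not tested for any of these. Of the values of single genes under alternatives, 761 kept their direction and side of the threshold, 369 fell short of it, 16 passed it and 9 changed sign, and with 1 set left out 403, 418, 1 and 7 did.

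Fits within trunk and duct or endocrine cells could not be made, since too few sets kept 5 cells. With 3 and 4 sets, 2 of them of under 10 cells, small differences were not detectable, and reads without molecular identifiers give no count of molecules.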

Other observations

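Hormone genes were read in endocrine-class cells, 18 at E15.5 and 51 at E14.5, with no test since too few sets held 5 of them. By set there were 2, 1 and 15 at E15.5, so most of that day's cells came from set 3, against 5, 3, 26 and 17 at E14.5. Gcg was at 50 CPM or more in 10 of 18 cells at E15.5 and 14 of 51 at E14.5. Iapp, the amyloid peptide of islets, was at that level in 18 of 18 cells at E15.5 (median 2504 CPM) and 30 of 51 at E14.5 (median 161 CPM). In the 15 cells of E15.5 set 3 the median of Iapp was 1004 CPM.

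C1qa, a complement gene on the leukocyte list, was higher within the acinar class at E15.5, with 130.3, 201 and 71.3 CPM in acinar-class cells of the E15.5 sets, against 3.54, 17 and 24.3 CPM in those of E14.5 sets 2, 3 and 4, a log2 fold change of 3.45 ± 0.64 (SE, adjusted p = 0.0455) in edgeR. It was the 1 leukocyte gene of 10 that could be tested there. In all acinar-marker cells it did not pass, with a log2 fold change of 3.42 (adjusted p = 0.0888), and it reached 50 CPM in 26 of 49 at E15.5 and 3 of 29 at E14.5. Among the other cells C1qa did so in 5 of 30 at E15.5 and 9 of 97 at E14.5. In the acinar class at 50 CPM, the leukocyte genes C1qb, C1qc, Csf1r and Ptprc reached that level in 0 of 27 cells at E15.5.

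Clps was also read outside the acinar-marker cells, at 50 CPM or more in 5 of 30 at E15.5 and 37 of 97 at E14.5. Clps is itself among the markers that separated these cells from the acinar-marker cells. The counts pool cells over sets of unequal size, so they are a description only and were not tested.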
